A study of Mus musculus with 12 samples.

Results

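A group of 10 genes was followed through the mouse brain after inhibition of mTOR. The members are Dusp1, Dusp4, Dusp5 and Dusp6, which encode MAP kinase phosphatases, Spry2, Spry4 and Spred1, which encode inhibitors of signaling to ERK, and Epha2, Cyr61 and Akap12. They are 10 of the 20504 genes in the table of counts on coding sequence (CDS). They were listed because they are known feedback regulators of ERK or had been seen to rise with AZD-8055 in these libraries, so their RNA-Seq and footprint values in mice A to D chose them and are described without a test.

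All mice were Camk2a-cre animals crossed to RiboTag mice, 3 months old, in which Cre driven by the Camk2a promoter adds an HA tag to the ribosomal protein Rpl22 in forebrain excitatory neurons. Mice A and B, labeled untreated, had been given the Captisol vehicle by oral gavage. Mice C and D had been given AZD-8055, an ATP-competitive mTOR inhibitor, by the same route at 100 mg/kg, 1 h before collection. Each of these 4 mice gave 1 library of ribosome footprints, made without ligation, and 1 poly(A)-selected RNA-Seq library from brain homogenate. Mice E and F, labeled untreated, each gave RNA-Seq libraries of the homogenate (input) and of RNA immunoprecipitated with HA-tagged ribosomes (IP), and neither received AZD-8055. Every group therefore holds 2 mice, and input and IP come from the same 2 animals. The main fits do not pair the libraries of a mouse. Their p-values rest on 2 animals per group, with a spread estimated partly from all genes.

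ERK is the last kinase of the Ras, Raf and MEK cascade that carries growth factor and synaptic signals to the nucleus. Active ERK induces genes that switch it off again. Among these, nuclear and cytoplasmic dual-specificity phosphatases remove the activating phosphates from MAP kinases, and Sprouty and Spred proteins act on the cascade above MEK. In brain, several of these genes belong to the activity-induced program of neurons. mTOR is a kinase that promotes translation, and its inhibition is known to relieve feedback from S6 kinase onto growth factor receptor signaling.

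The RNA-Seq libraries of mice A to D held 9395385 to 10649939 counts on CDS, the footprint libraries 3503873 to 9259938, the inputs 12580397 and 15585831, and the IPs 9309496 and 9975629. Levels are given as CPM, the count of a gene scaled to the CDS total of its library, which allow a gene to be compared between libraries but not with another gene, since they are not divided by length. All libraries come from tissue of mixed cell types, where fewer cells of a type and less RNA per cell cannot be told apart. Untreated mouse B stood apart in composition, because the summed RNA of 7 choroid plexus markers was 1079 CPM in it and 36.3 to 84.8 CPM in mice A, C and D. The footprints of these markers summed to 1249 CPM in mouse B and to 44.1 to 116 CPM in the other 3.

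On CDS counts, RNA of 7 members was higher in both treated mice than in both untreated mice. Epha2 and Cyr61 had the largest fitted increases among the members, and Dusp1, Dusp4, Dusp6, Spry2 and Akap12 had smaller ones. Spry4 was lower in both treated mice, and Dusp5 and Spred1 overlapped between the groups. Of the 12182 genes tested, 18.1% had both treated mice above both untreated mice and 20.7% had both below. The median log2 change of the 10 members was 0.46, beside −0.0035 for all genes tested.

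Dusp1, a nuclear phosphatase of ERK, p38 and JNK and an immediate early gene, had RNA levels of 41.4 and 44.0 CPM in untreated mice A and B and of 65.8 and 57.9 CPM in treated mice C and D. Both treated mice were above both untreated mice, and the mean went from 42.7 ± 1.82 to 61.9 ± 5.57 CPM (SD, n = 2 per group). The fitted log2 change of Dusp1 RNA was 0.54 ± 0.095 (SE).

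Dusp6, a cytoplasmic phosphatase selective for ERK, had RNA levels of 50.5 and 52.2 CPM in mice A and B and of 74.7 and 69.0 CPM in mice C and D. The groups did not overlap, and the fitted log2 change was 0.49 ± 0.085. Dusp4, a nuclear phosphatase, stood at 5.96 and 7.18 CPM without and at 8.83 and 8.73 CPM with AZD-8055. Its groups did not overlap either, but the fitted log2 change of 0.42 ± 0.20 on CDS counts was 0.14 ± 0.15 on exon counts, which include the untranslated parts of the transcript.

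Dusp5, a nuclear phosphatase selective for ERK, had RNA levels of 9.79 and 8.69 CPM in mice A and B and of 9.13 and 8.54 CPM in mice C and D. These values overlapped, with a fitted log2 change of −0.058 ± 0.19. The phosphatases thus moved unequally within the group. On CDS counts 3 of 4 were higher in both treated mice, an order that 18.1% of all genes tested showed.

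Among the Sprouty and Spred genes, Spry2 RNA stood at 62.6 and 62.2 CPM in mice A and B and at 80.1 and 76.0 CPM in mice C and D. The increase in both treated mice corresponded to a fitted log2 change of 0.33 ± 0.080. Spry4, its paralog, was at 5.43 and 5.66 CPM without and at 5.06 and 3.38 CPM with AZD-8055. Both treated mice were below both untreated mice on CDS counts, with a fitted log2 change of −0.39 ± 0.26, which was −0.13 ± 0.10 on exon counts. On CDS counts the change was −0.71 without mouse C and −0.12 without mouse D. The counts of Spry4 on exons were 347, 368, 344 and 346 in mice A to D, of which 51, 56, 51 and 36 lay on CDS. Spred1, a membrane-bound inhibitor of Raf activation, ranged from 91.8 to 105 CPM in the untreated and from 84.6 to 115 CPM in the treated mice. The treated mice of Spred1 lay on either side of the untreated ones, and the fitted log2 change was 0.028 ± 0.11.

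Epha2, a receptor tyrosine kinase of the Eph family, had few counts, namely 17 and 20 in the RNA-Seq libraries of mice A and B and 69 and 64 in those of mice C and D. These correspond to 1.81 and 2.02 CPM without and to 6.85 and 6.01 CPM with AZD-8055. The means of 1.92 ± 0.15 and 6.43 ± 0.59 CPM (SD, n = 2 per group) differed 3.36-fold, and the fitted log2 change was 1.74 ± 0.28.

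Cyr61, now named Ccn1, encodes a secreted matricellular protein and is an immediate early gene. Its RNA stood at 8.30 and 8.49 CPM in mice A and B and at 16.8 and 19.9 CPM in mice C and D. Both treated mice were above both untreated mice, with a fitted log2 change of 1.13 ± 0.17. Akap12, a scaffold that anchors protein kinase A and other signaling enzymes, was at 51.1 and 49.3 CPM in mice A and B and at 90.9 and 66.2 CPM in mice C and D. The groups did not overlap, the treated mice differed more from each other than the untreated ones did, and the fitted log2 change was 0.65 ± 0.12. Without mouse C the log2 change of Akap12 was 0.41, and without mouse D it was 0.86.

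**Figure D1:**
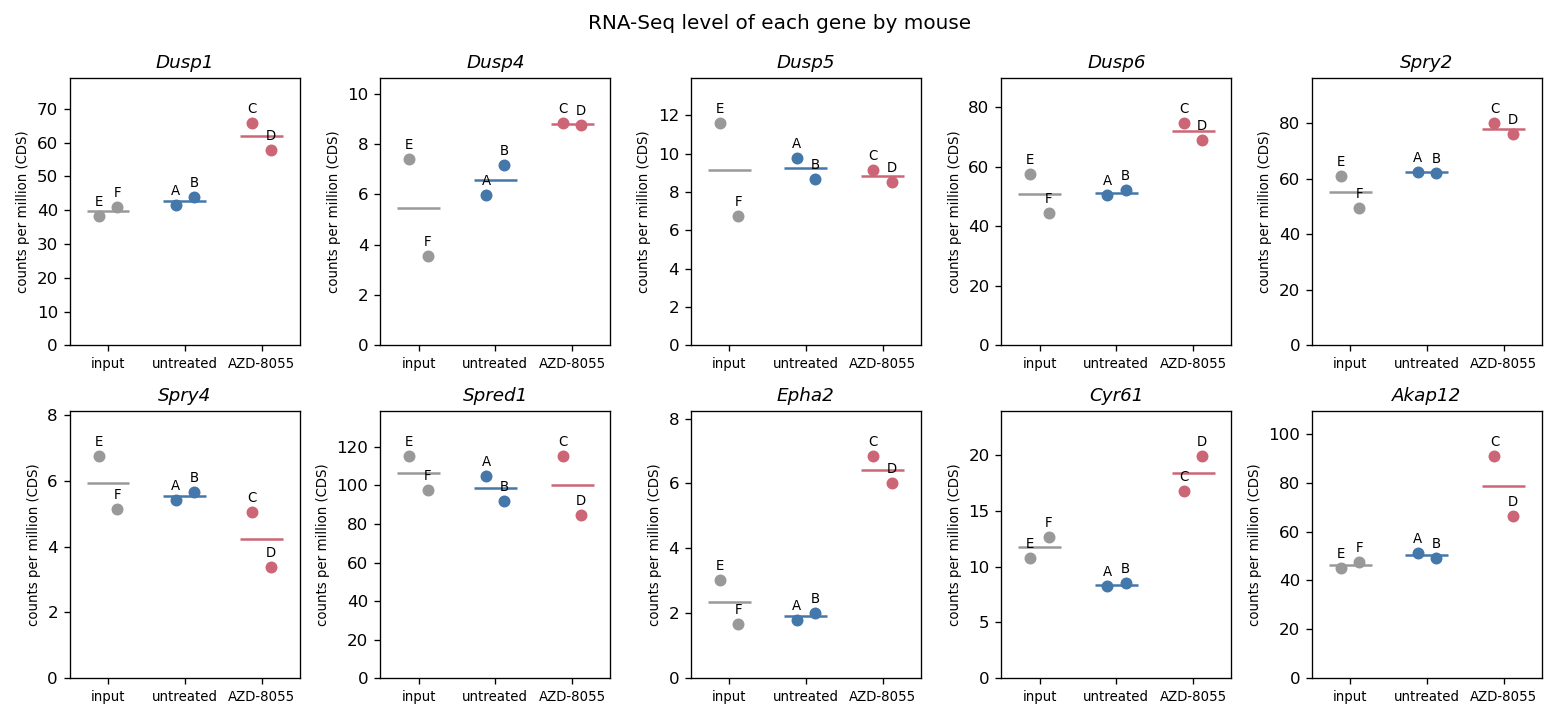
RNA-Seq level in CPM, scaled to the CDS total (vertical axis, from 0, own scale for each gene) of the 10 genes in the inputs of mice E and F (grey), untreated mice A and B (blue) and AZD-8055-treated mice C and D (red), with a point for each mouse and a line at the mean of each pair. Epha2 goes from 1.92 to 6.43 CPM between the blue and red means, whereas the points of Dusp5 and Spred1 overlap.

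The inputs of mice E and F gave a second pair of untreated homogenates that the choice of members had not used, although the treated mice are the same. Cyr61 RNA was 10.8 and 12.6 CPM in these inputs, between the untreated and treated levels of mice A to D, and its fitted log2 change against them was 0.67 ± 0.17. Epha2 was at 3.02 and 1.67 CPM in the inputs, and Akap12 at 45.0 and 47.7 CPM. Both treated mice were above all 4 untreated mice for 7 members, the same 7 as against mice A and B, and 7.49% of all genes tested shared that order. Spry4 was below all 4 untreated mice, as were 9.67% of all genes tested. These orders still include mice A and B, whose values chose the members, so they are a description and no test. The inputs come from a separate set of libraries, and mice C and D differed from them at 6.36% of genes in the higher and 7.17% in the lower direction (edgeR quasi-likelihood test, Benjamini-Hochberg adjusted p under 0.05).

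In the fit of mice A to D alone, 5 of the 10 members passed that threshold in RNA-Seq, all higher with treatment, namely Dusp1, Dusp6, Epha2, Cyr61 and Akap12, where 0.0575% of the 12182 genes tested (7 genes) were called higher. None was called lower, where 0.0903% of genes were. As the members were chosen on this contrast, the count describes the choice and is no test of the members. Epha2 reached the minimum mean of 37 counts only through the treated mice, where it was high, and was not fitted without mouse C or without mouse D. The count was 3 of 10 with DESeq2 (Dusp1, Dusp6 and Akap12) and 4 of 10 in edgeR on exon counts or with DESeq2 size factors (without Akap12 in both). In edgeR fewer members were called when any of the mice was left out. Such a fit leaves 1 mouse in a group, so its count is not given.

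Ribosome footprints on the members showed the same order in 5 of the 9 genes with enough footprints, where 22.8% of the 10695 genes tested had both treated mice above and 21.6% had both below. Dusp6 and Cyr61 had the largest fitted increases in footprints among the members, followed by Dusp1, Spry2 and Akap12. Dusp4 differed from its RNA in showing almost equal footprint levels in all 4 mice. The median log2 footprint change of the 9 members was 0.39, beside 0.0022 for all genes tested.

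Dusp6 footprints stood at 91.0 and 81.1 CPM in untreated mice A and B and at 134 and 132 CPM in treated mice C and D. The groups of this ERK phosphatase did not overlap, and the fitted log2 change was 0.61 ± 0.089. Dusp1 footprints were 40.5 and 36.0 CPM without and 59.4 and 55.0 CPM with AZD-8055, with a fitted log2 change of 0.56 ± 0.12. Dusp4 footprints were 14.6, 15.6, 15.1 and 16.0 CPM in mice A to D, which overlapped, with a fitted log2 change of 0.046 ± 0.17. Dusp5 footprints were 10.9, 13.2, 14.6 and 8.82 CPM in mice A to D, and the 2 treated mice of this phosphatase were the highest and the lowest of the 4.

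Spry2 footprints went from 42.5 and 39.5 CPM in mice A and B to 56.5 and 56.9 CPM in mice C and D, with a fitted log2 change of 0.45 ± 0.11. Spry4 footprints were 10.7 and 11.2 CPM without and 7.13 and 7.35 CPM with AZD-8055, on 99, 51, 25 and 35 counts. Both treated mice were again below both untreated mice for Spry4, and the fitted log2 footprint change was −0.60 ± 0.24. Spred1 footprints lay between 84.9 and 99.3 CPM in all 4 mice, without separation of the groups.

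Cyr61 footprints stood at 14.5 and 8.79 CPM in mice A and B and at 19.4 and 21.2 CPM in mice C and D, with a fitted log2 change of 0.73 ± 0.23. The untreated mice differed from each other for this gene, and leaving out mouse A gave a log2 change of 1.21 and leaving out mouse B one of 0.48. Akap12 footprints were 33.4 and 31.6 CPM without and 49.7 and 37.4 CPM with AZD-8055, and the fitted log2 change of 0.39 ± 0.15 was 0.18 without mouse C and 0.61 without mouse D. Epha2 had 15, 14, 16 and 15 footprints in mice A to D, under the mean of 37 counts that a gene needed to be fitted. As CPM these were 1.62, 3.08, 4.57 and 3.15, with untreated mouse B and treated mouse D nearly level, so that a change in Epha2 footprints could not be resolved at this depth.

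**Figure D2:**
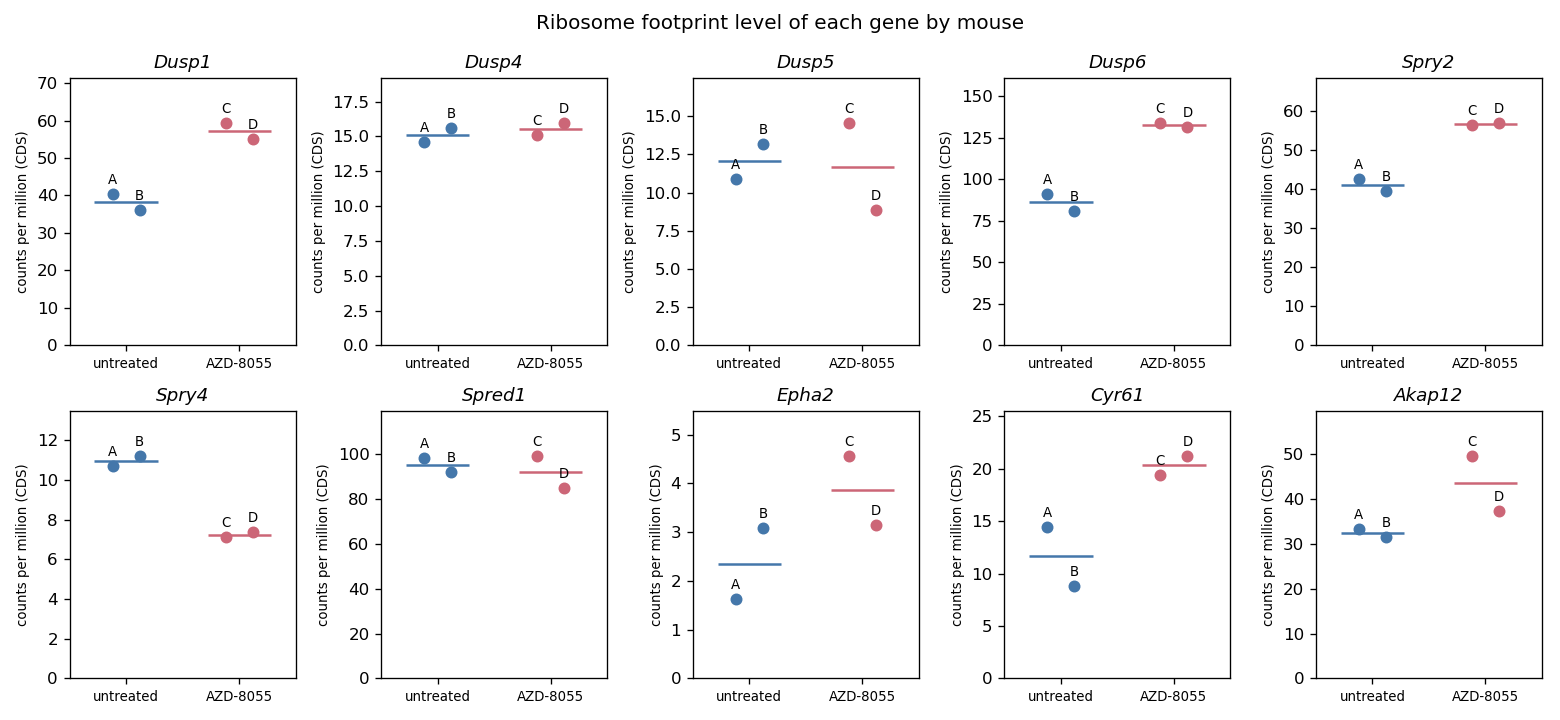
Ribosome footprint level in CPM, scaled to the CDS total (vertical axis, from 0, own scale for each gene) of the 10 genes in untreated mice A and B (blue) and AZD-8055-treated mice C and D (red), with a point for each mouse and a line at the mean of each pair. Dusp6 separates from 81.1 to 91.0 CPM without to 132 to 134 with treatment, and Dusp4 lies between 14.6 and 16.0 in all 4 mice.

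Dusp6 was the member that passed the threshold in footprints, 1 of 9, where 0.0468% of genes (5 of 10695) were called higher. No member was called lower, where 0.963% of genes were. The other 4 of the 5 were Haghl, Ss18l1, Egr4 and Cdx4, of which all but Egr4 are named after their values had been seen. The number of members called in footprints moved with the mouse that was left out, as did the number over all genes. Such a fit leaves 1 mouse in a group, so its count is not given.

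**Figure D3:**
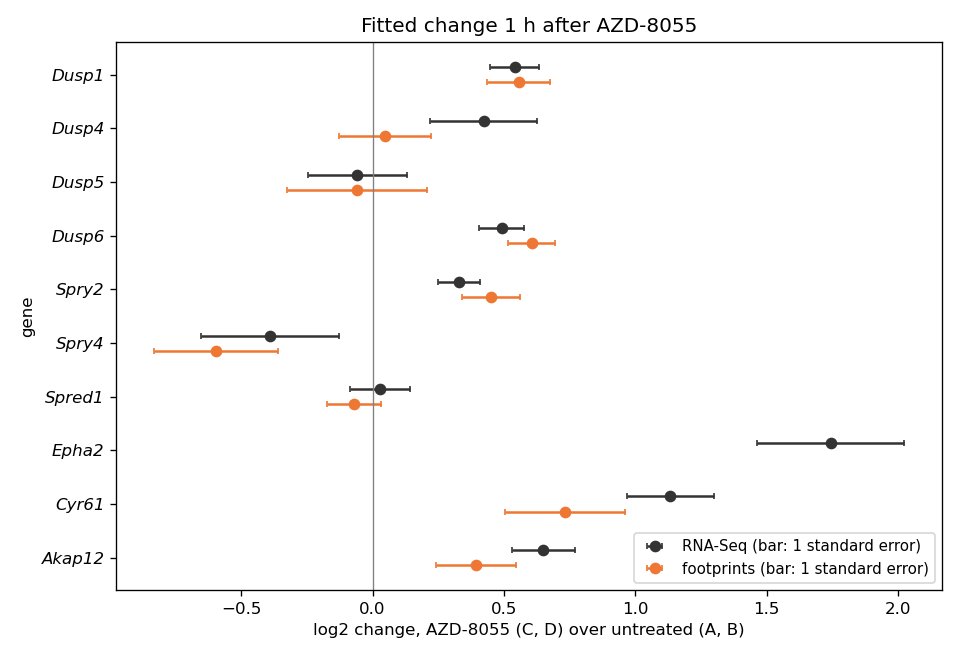
Fitted log2 change from untreated mice (A, B) to AZD-8055-treated mice (C, D) for each of the 10 genes (horizontal axis) in RNA-Seq (black) and in footprints (orange), with bars of 1 standard error. RNA-Seq changes run from −0.39 for Spry4 to 1.74 for Epha2, which has no footprint value, and the 2 points lie farthest apart for Cyr61 and Dusp4, with RNA-Seq to the right.

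The translation efficiency (TE), the normalized footprint count of a gene divided by its normalized RNA-Seq count in the same mouse, differed widely among the members in untreated mice. Dusp4 had a log2 TE of 1.30 ± 0.16 (SD, n = 2), above 93.3% of the 10882 genes with at least 75 counts of each kind over both mice. Spry4 followed at 1.08 ± 0.036, above 89.4% of genes, and Dusp6 at 0.84 ± 0.19, above 83.7%. These feedback regulators thus had more footprints per RNA read on CDS than most genes, with a median log2 TE of all genes of 0.016.

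At the other end, Akap12 had a log2 TE of −0.53 ± 0.060 and Spry2 of −0.51 ± 0.11, above 28.2% and 29.0% of genes. Dusp1 stood at −0.062 ± 0.22 and Spred1 at 0.057 ± 0.028, near the middle of all genes. Dusp5 stood at 0.48 ± 0.27, and Cyr61 stood at 0.93 in mouse A but at 0.12 in mouse B. Epha2 had 29 footprints and 37 RNA-Seq counts over both mice, too few for the threshold.

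After AZD-8055, no member passed the threshold for a change in TE in edgeR or in DESeq2, where edgeR called 0.0848% of the 11797 genes tested higher and 0.78% lower. A TE change is built from the same RNA-Seq and footprint values that chose the members, so its values are a description. Dusp4 TE was 1.42 and 1.19 in mice A and B and 0.86 and 0.90 in mice C and D on the log2 scale, lower in both treated mice, with a fitted change of −0.40 ± 0.27. TE uses CDS counts, and the log2 RNA change of Dusp4 was only 0.14 ± 0.15 on exon counts. Akap12 TE was −0.49 and −0.57 without and −0.79 and −0.79 with AZD-8055, also lower in both treated mice. Spry2 TE was −0.43 and −0.58 without and −0.42 and −0.38 with treatment, higher in both treated mice by a small margin. The other 6 members overlapped between the groups, and of all genes 16.3% had both treated mice above and 20.9% had both below.

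**Figure D4:**
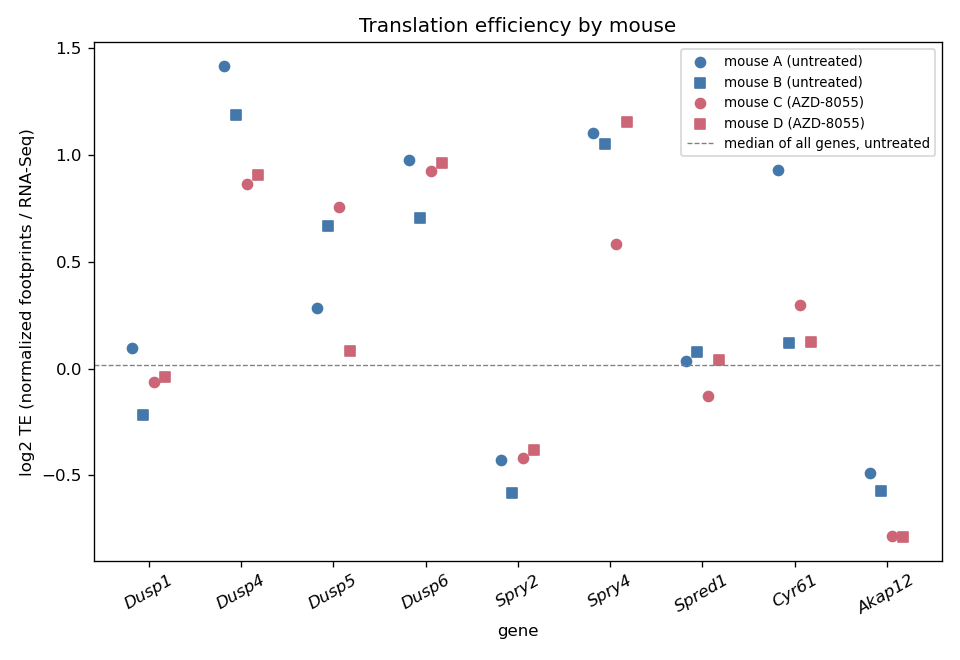
Log2 TE (vertical axis, normalized footprint count over normalized RNA-Seq count) of the 9 genes with enough counts, with a point for each of untreated mice A and B (blue) and AZD-8055-treated mice C and D (red), and a dashed line at the median of all genes in untreated mice, 0.016. Dusp4, Spry4 and Dusp6 lie above the line and Spry2 and Akap12 below it in all 4 mice.

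The RiboTag libraries asked which members are carried by ribosomes of Camk2a-expressing neurons, in mice whose IP the choice of members had not used. As the input is RNA of the whole homogenate, cell type and the share of an RNA on ribosomes cannot be told apart in this ratio. Dusp1 and Dusp6 were enriched in the IP, and Akap12 and Spred1 were depleted. This is 2 higher and 2 lower of the 9 members tested, beside 33.7% higher and 35.7% lower of the 13254 genes tested, so these shares are no larger than those of all genes. The check of the IP held for the marker lists: 8 of 10 excitatory neuron markers were higher (Nrgn by a log2 change of 2.09), all 10 astrocyte, all 10 oligodendrocyte and all 10 endothelial markers were lower, and so were 9 of 10 inhibitory neuron markers. Camk2a, whose promoter drives Cre, was higher in both IPs without passing, at 0.27 ± 0.13 (adjusted p = 0.105, edgeR).

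For Dusp1, normalized exon counts went from 721 in the input to 1257 in the IP in mouse E, and from 758 to 1210.4 in mouse F. The IP was higher in both mice, by 0.80 and 0.67 on the log2 scale, and the fitted log2 difference was 0.62 ± 0.098 (SE, adjusted p = 0.00173, edgeR quasi-likelihood test). For Dusp6 they went from 1402 to 2098 in mouse E and from 1180.5 to 1745 in mouse F. It was higher in both IPs, with a fitted log2 difference of 0.46 ± 0.14 (adjusted p = 0.0228, edgeR). The per-mouse ratios use DESeq2 size factors and the fit uses TMM, and the median of all genes differed by 0.12 between these scalings. Relative to that median, the log2 differences of Dusp1 and Dusp6 were 0.65 and 0.49 under both.

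For Akap12 the normalized exon counts went down from 629.6 in the input to 177 in the IP in mouse E, and from 643 to 202 in mouse F. The scaffold was 3.64-fold lower in the IP, with a fitted log2 difference of −1.86 ± 0.13 (adjusted p = 9.61e-05, edgeR), and of −1.71 ± 0.16 on CDS counts. Spred1 had 2734 and 1868 normalized counts in input and IP of mouse E, and 2353 and 1180.4 in mouse F. It was lower in both IPs, with a fitted log2 difference of −0.86 ± 0.21 (adjusted p = 0.0116, edgeR).

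Epha2 was nearly absent from the IPs, with 1 exon count against 41 in the input in mouse E, and with 3 against 30 in mouse F. Its mean of 18.8 counts was under the minimum for the fit. Over both mice the normalized level was 0.0878 times the input (95% exact interval 0.0233 to 0.235, counting error only). This value is given without a test.

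Spry2 had 1068 and 1523 normalized exon counts in input and IP of mouse E, and 900.3 and 1039.8 in mouse F. It was higher in both IPs, but the fitted log2 difference of 0.26 ± 0.19 did not pass the threshold (adjusted p = 0.263, edgeR). With the mouse as a block, since input and IP of a letter come from 1 animal, Spry2 passed at 0.24 (adjusted p = 0.00968, edgeR). The block leaves little of a gene's own spread to estimate. For Spry2 and all other members, p-values with the block therefore rest mostly on a spread estimated from all genes. They hardly measure how far the mice differed in their ratios. On CDS counts without the block it passed at 0.52 ± 0.19 (adjusted p = 0.0329, edgeR).

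Spry4 had 432 and 373 normalized exon counts in input and IP of mouse E, and 280.2 and 136 in mouse F. The log2 ratios were −0.21 in mouse E and −1.04 in mouse F. The fitted log2 difference of −0.61 ± 0.45 did not pass (adjusted p = 0.267, edgeR). It passed with the mouse as a block at −0.70 (adjusted p = 2.94e-05, edgeR), a p-value that hardly measures the difference between the mice. On CDS counts, 85 and 20 in mouse E and 80 and 5 in mouse F, Spry4 was lower by a log2 difference of −1.74 ± 0.50 (adjusted p = 0.0117, edgeR). The size of its depletion therefore depended on which part of the transcript was counted.

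Cyr61 had 174 and 82.6 normalized exon counts in input and IP of mouse E, and 199 and 229 in mouse F. The mice went in opposite directions, with log2 ratios of −1.07 and 0.21, and the fitted difference was −0.36 ± 0.43 (adjusted p = 0.481, edgeR). With the mouse as a block it passed at −0.44 (adjusted p = 0.0402, edgeR), but on CDS counts it did not pass with the block, at −0.12 (adjusted p = 0.665, edgeR), or without it, at −0.036 (adjusted p = 0.942, edgeR). Dusp5 also went in opposite directions, at 0.51 in mouse E and −0.33 in mouse F, and Dusp4 was at −0.030 and −0.69, and neither passed with or without the block. With the block 3 members were higher and 4 lower, beside 39.4% higher and 41.5% lower of all genes tested.

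**Figure D5:**
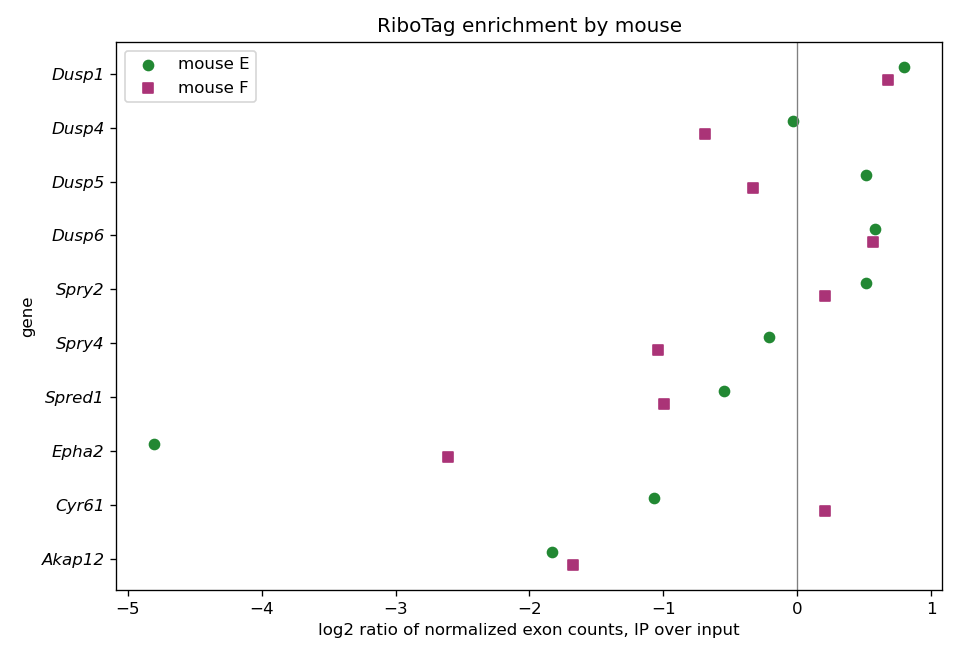
Log2 ratio of normalized exon counts in the RiboTag IP over the input (horizontal axis) for each of the 10 genes in mouse E (green circles) and mouse F (purple squares). Dusp1 lies at 0.80 and 0.67 and Akap12 at −1.83 and −1.67, the 2 mice fall on opposite sides of 0 for Dusp5 and Cyr61, and Epha2 rests on 1 and 3 IP counts.

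Promoter sequence was examined because 7 members had higher RNA in both treated mice. The RefSeq promoter table for GRCm38.p6, the assembly that mm10 denotes, held 7 of the 10 members, covering 250 bases before to 50 after the start of each gene. Motifs of ERK-, cAMP- and YAP-responsive genes were searched on both strands. They were the cAMP response element TGACGTCA, its core TGACG, which lies within it, the AP-1 motif TGANTCA, the ETS motif CCGGAA, the CArG box bound by SRF and the TEAD motif CATTCC. Among the 32851 promoters of the table, 1.79% held TGACGTCA, 20.8% TGACG, 7.81% TGANTCA, 14.9% CCGGAA, 1.63% a CArG box and 14.7% CATTCC. A match is a description of letters and not evidence of binding. The stretches shown are from the 4 promoters with matches before the start, and the capitals mark the matches. Dusp1 (chr17:26508596-26508675, minus strand) holds TGACGTCA at −143 to −136 from the start and TGACG at −191 to −187. Dusp5 (chr19:53529051-53529106, plus strand) holds 2 adjacent CArG boxes at −82 to −73 and −72 to −63 and the reverse complement of TGACG at −55 to −51. Epha2 (chr4:141301153-141301207, plus strand) holds CATTCC at −56 to −51 and TGACGTCA at −33 to −26. Cyr61 (chr3:145650027-145650100, minus strand) holds CATTCC at −103 to −98 and the reverse complement of TGACG at −58 to −54.
Dusp1: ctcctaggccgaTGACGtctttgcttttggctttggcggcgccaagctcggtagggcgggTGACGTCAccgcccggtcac
Dusp5: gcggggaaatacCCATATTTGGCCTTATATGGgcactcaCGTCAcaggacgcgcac
Epha2: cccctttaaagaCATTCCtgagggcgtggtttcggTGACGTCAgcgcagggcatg
Cyr61: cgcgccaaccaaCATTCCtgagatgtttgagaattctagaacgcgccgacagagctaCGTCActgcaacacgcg

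The palindromic cAMP response element thus occurred in the windows of Dusp1 and Epha2, and CArG boxes in that of Dusp5, whose RNA overlapped between the groups. The Epha2 window held a further CATTCC at −243 to −238, outside the stretch shown. Dusp6 and Spred1 held none of the searched motifs, and Spry2 held CCGGAA after the start, at 34 to 39. The windows cover a small part of the regulatory sequence of each gene. Dusp4, Spry4 and Akap12 were not matched.

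The other genes of the pathways were followed in 8 lists of 180 genes that are no members. In RNA-Seq, 159 were tested and none passed in edgeR or in DESeq2, while 16 were higher and 7 lower at an unadjusted p under 0.05, a limit that 3.90% of all genes tested passed in the higher and 4.34% in the lower direction. In footprints, 144 were tested and 1 was higher, 0 lower, in edgeR, while DESeq2 called none and 20 were higher and 7 lower at an unadjusted p under 0.05, beside 6.12% and 6.70% of all genes. In TE, 156 were tested and none passed in either tool, with 7 higher and 7 lower at an unadjusted p under 0.05, beside 2.75% and 4.02% of all genes.

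The gene that passed was Egr4, an activity-induced zinc-finger transcription factor. Its footprints stood at 55.5 and 61.3 CPM in mice A and B and at 79.6 and 93.9 CPM in mice C and D. The groups did not overlap, and the fitted log2 change of Egr4 footprints was 0.58 ± 0.11 (adjusted p = 0.0344, edgeR). It did not pass with DESeq2 (adjusted p = 0.0585, Wald test). The log2 footprint change was 0.51 without mouse A, 0.63 without mouse B, 0.68 without mouse C and 0.46 without mouse D. Egr4 RNA was 64.2 and 66.9 CPM without and 73.0 and 78.8 CPM with AZD-8055, a fitted log2 change of 0.22 ± 0.081 that did not pass (adjusted p = 0.466, edgeR). Against the inputs of mice E and F, which come from separate libraries, the log2 RNA change of Egr4 was 1.15 ± 0.11.

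The 43 ERK transcription targets, most of them immediate early genes such as Fos and Egr1, included 41 tested in RNA-Seq, of which 11 were higher and 2 lower at an unadjusted p under 0.05, beside 3.90% and 4.34% of all genes, and none passed after adjustment in edgeR or DESeq2. Their median log2 RNA change was 0.10, beside −0.0035 for all genes tested. The 42 tested genes of the ERK cascade, from adaptors to ribosomal S6 kinases, had a median of 0.0056, with 1 higher and 1 lower at an unadjusted p under 0.05 and none after adjustment in either tool. The other MAP kinase phosphatases had 4 genes tested, none called in edgeR or DESeq2 and 1 lower at an unadjusted p under 0.05, and the other Sprouty and Spred genes had 3 tested, none called and 1 higher at that limit. Of the receptor tyrosine kinases upstream of ERK 19 were tested, of the Eph receptors and ephrins 18, of the AKAP anchors and PKA subunits 17 and of the YAP and SRF targets, the program to which Cyr61 belongs, 15. None of these passed in edgeR or DESeq2, and at an unadjusted p under 0.05 they had 1 higher and 1 lower, 0 and 0, 1 and 1, and 1 and 1.

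In the RiboTag IP of mice E and F, 35 of 163 pathway genes tested were higher and 75 lower (edgeR, adjusted p under 0.05). Of all 13254 genes tested, 33.7% were higher and 35.7% lower, shares that stand beside the count of every list in this IP. The median log2 difference of the pathway genes was −0.32, beside −0.034 for all genes. Of the receptor tyrosine kinases 17 of 18 were lower and none higher in edgeR, with the largest differences for Erbb4, the neuregulin receptor, at −6.56 ± 0.32, and for the VEGF receptors Flt1 at −4.83 ± 0.32 and Kdr at −4.35 ± 0.33. The same number was lower and none higher at an unadjusted p under 0.05, and DESeq2 called 16 of them.

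Among the phosphatases related to the members, Dusp7 was higher in the IP at 0.75 ± 0.092 and Dusp10 and Dusp16, which act on JNK and p38, were lower at −2.46 ± 0.28 and −1.12 ± 0.16. Spred3 and Spred2 were lower, at −0.95 ± 0.18 and −0.91 ± 0.31, as Spred1 was. The ERK cascade had 9 of 42 genes higher and 18 lower, beside 33.7% and 35.7% of all genes. Pebp1, an inhibitor of Raf, the ERK kinase Map2k1 and the adaptor Grb2 were higher at 1.74 ± 0.12, 1.00 ± 0.081 and 0.86 ± 0.096, and Gab1, Ksr2 and Shc1, which are adaptors and scaffolds, were lower at −3.10 ± 0.17, −1.63 ± 0.23 and −1.51 ± 0.19.

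ERK transcription targets had 13 of 41 higher in the IP and 8 lower. As for the lists below, these counts stand beside 33.7% higher and 35.7% lower of all genes. Ier3, Egr4 and Ier5 were higher at 1.63 ± 0.25, 1.42 ± 0.11 and 1.34 ± 0.25. Klf4, Klf2 and Zfp36 were lower at −2.81 ± 0.52, −1.94 ± 0.38 and −1.88 ± 0.30. The YAP and SRF targets had 1 of 19 higher, Nov at 0.78 ± 0.10, and 15 lower, led by Acta2, Axl and Cnn2 at −3.68 ± 0.36, −3.62 ± 0.14 and −2.84 ± 0.28. The Eph receptors and ephrins had 7 of 19 higher, led by Efna3 at 0.79 ± 0.17, Efna2 and Efna5, and 6 lower, led by Ephb4 at −3.17 ± 0.31, Epha8 and Epha6. The AKAP anchors and PKA subunits had 4 of 17 higher, led by the PKA subunits Prkar1b at 1.04 ± 0.080, Prkaca and Prkar1a, and 7 lower, led by the anchors Akap13 at −1.90 ± 0.13, Akap8l and Akap8. Beside them, Akap12 stood at −1.86.

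Markers of the cell types in the tissue were set beside the member changes. No gene of the 10 marker lists passed in RNA-Seq, footprints or TE, in edgeR or DESeq2. At an unadjusted p under 0.05, 6 of the 81 tested were higher and 8 lower in RNA-Seq, 7 higher and 8 lower of 77 in footprints, and 2 higher and 3 lower of 80 in TE. Of all genes, 3.90% were higher and 4.34% lower at that limit in RNA-Seq, 6.12% and 6.70% in footprints, and 2.75% and 4.02% in TE. The excitatory neuron list held 3 of the 6 in RNA-Seq and 4 of the 7 in footprints, and the choroid plexus list, high in mouse B, held 3 of the 8 lower in RNA-Seq. The summed excitatory neuron markers were 4421 to 4473 CPM in untreated and 4483 to 4857 CPM in treated RNA-Seq, and 4484 to 4518 CPM and 5010.5 to 5114 CPM in footprints. The inhibitory neuron markers were 1734 to 1773 CPM and 1833 to 1861 CPM in RNA-Seq and 2603 to 2611 CPM and 2749 to 2855 CPM in footprints, so both neuronal sums were higher in both treated mice.

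The endothelial marker sum was 309 to 360.5 CPM in untreated and 328 to 342 CPM in treated RNA-Seq, with overlap, and none of its 10 markers was at 0. Mural and microglial sums overlapped in RNA-Seq and were lower in both treated mice in footprints, at 179 to 184 against 153 to 170.4 CPM and at 601 to 616 against 585 to 586 CPM. Astrocyte, oligodendrocyte and OPC sums overlapped between the groups in both kinds of library. Of the 5 blood markers in the table, the globin genes Hba-a1, Hba-a2, Hbb-b1 and Hbb-b2 were at 0 in every library of mice A to D. The part of these sums in the member changes was not tested.

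The members' shared pattern was summarized as their mean log2 normalized count, centered within each kind of library, over the 8 libraries of mice A to D and the 9 members with enough counts. It was highest in treated mouse C, at 0.29 in RNA-Seq and 0.22 in footprints, and lower in treated mouse D, at 0.079 and 0.017. Untreated mice were at −0.17 and −0.20 in RNA-Seq and at −0.024 and −0.22 in footprints. Akap12 and Dusp1 followed the mean of the other members most closely, with Pearson correlations of 0.97 and 0.93 over the 8 libraries, Dusp5 had 0.015 and Spry4 −0.64.

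The 5 genes of 10522 whose pattern was most like this mean were Gria1, Fbxo31, Necab3, Klf6 and Dlgap1, with correlations of 0.99, 0.99, 0.99, 0.98 and 0.98. The 8 points share 4 mice, so they are not independent, and the values describe these libraries. Klf6, an immediate early transcription factor, was at 14.5 and 12.7 CPM in RNA-Seq of mice A and B and at 25.6 and 18.4 CPM in that of mice C and D. Gria1, which encodes an AMPA receptor subunit, was at 258 and 258 CPM without and 290.3 and 277 CPM with AZD-8055, a smaller difference with the same order of the mice.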

How the data were processed

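The deposited values are raw counts per gene. The CDS table covers all 12 libraries, and the exon table covers the 8 libraries of RNA-Seq. Per the submitters' processing notes and the study's methods, footprint reads were trimmed and cleared of rRNA with Bowtie2, and reads were aligned to mm10 with TopHat2 and counted with HTSeq. Versions are not given in the sources used here. The CDS table holds 27 symbols that look like dates and were left as they are.

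Counts were fitted with edgeR 4.0.16 in R 4.3.3 (TMM normalization, quasi-likelihood test, Benjamini-Hochberg adjustment over all genes tested, threshold 0.05, mean of at least 37 counts per library), and TE changes as the interaction of library kind and treatment, since the study's RiboDiff was not at hand. TE and per-mouse IP ratios used DESeq2 1.42.0 size factors. The IP was fitted on exon counts, the rest on CDS counts. RNA-Seq CPM and footprint CPM were computed from the library totals. The procedures were tested on simulated data. Python 3.11.15, numpy 2.4.6, pandas 2.3.3 and matplotlib 3.10.9 were used for summaries and figures. Gene names, positions and promoters came from RefSeq tables for GRCm38.p6.

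The members and gene lists were chosen with earlier results of these data known. All members are named. From each list, up to 3 genes per direction with the largest change among those called are named, and the 5 genes most like the members by correlation (pseudocount 1). Genes named outside this rule are said to be so, and 1 gene is not reported here.

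The mouse letter pairs libraries because they come from 1 animal. The log2 deviation of mouse A from mouse B correlated at 0.25 over genes between both kinds of library, that of C from D at 0.28, and the E to F deviation of inputs and IPs at 0.56. Alternatives were DESeq2, other scalings, other filters on counts, exon or CDS counts, other controls, a limit on the fold change, the mouse as a block and leaving out each mouse.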

Additional observations from a re-analysis of the deposited data

How the results depend on the processing

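Each group holds 2 mice, so leaving out a mouse moved the counts. Such fits leave 1 mouse in a group, so their counts are not given. Of the pathway genes in RNA-Seq, 1 was higher and 1 lower without the filter on counts. With the inputs of mice E and F as controls, which come from separate libraries, 15 were higher and 23 lower. Of all genes, 6.36% were higher and 7.17% lower against these inputs. In footprints, 0 to 8 were higher and 0 to 4 lower without each mouse, 2 and 3 without the filter, and 0 higher with DESeq2. In TE, 2 were lower without the filter. Of the members in the IP, 0 were higher and 1 lower when a fold change over 2 was also asked for, and 4 were lower with the mouse as a replicate block, which adds Spry4 and Cyr61. A minimum mean of 10 counts or no filter called 3 members lower. This adds Epha2, which had 71 counts in the inputs and 4 in the IPs. The block on CDS counts, added after the data had been seen, called 3 higher and 3 lower. With the block, 52 of 163 pathway genes were higher and 85 lower in the IP, beside 39.4% and 41.5% of all genes. No member or pathway gene passed in TE with the block. Without a mouse the IP leaves 1 library of each kind, which gives values and no test.

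The fitted TE change of Cyr61 went from −0.42 to 0.071 without mouse A and to −0.68 without mouse B. The cause was not tested. The RNA-Seq changes of Dusp1, Dusp4, Dusp6, Spry2, Epha2, Cyr61 and Akap12 kept their sign under every alternative run. As both treated mice were above both untreated mice for these genes, leaving out a mouse could hardly change a sign. This part of the check therefore adds no support, and Epha2 was not fitted without mouse C or without mouse D. The depth limits Epha2, Spry4, Dusp4, Dusp5 and Cyr61 most, with 14 to 135 footprints per library.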
